A study of Homo sapiens with 4 samples.

Results

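The transient receptor potential melastatin (TRPM) genes encode 8 cation channels of human cells, TRPM1 to TRPM8, and they are described here in Caki-1 cells depleted of the transcription factor TFE3. All 8 were found by Ensembl identifier among the 61533 genes of the count table. The family was selected on the log2 fold change of TRPM8, already known to be among the lowest in this comparison, so the differences of its members are given as a description and are not tested. Of the 8 members, 5 (TRPM3, TRPM4, TRPM6, TRPM7 and TRPM8) had enough reads to be fitted, and TRPM1, TRPM2 and TRPM5 did not.

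Polyadenylated RNA was sequenced from Caki-1, an established human renal cell carcinoma line, in 2 shTFE3 libraries (genotype TFE3-KD in the labels) and 2 shControl libraries (genotype WT). Cells of both arms were infected with lentivirus, replated after 24 hours, given puromycin at 1 µg/ml from 12 hours after replating, and harvested after 3 days of selection. The labels do not give the number of hairpins or say whether replicates came from separate infections. The spread behind each p-value and SE is therefore that between libraries, largely shared over all genes by the fit, and may be technical. TFE3, one of the MiT/TFE proteins, binds E-box sites and drives lysosomal genes. The series asks how the TFE3-SLC36A1 axis bears on survival without glucose, but the labels name no glucose-free culture for these libraries.

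TRPM channels assemble from 4 subunits and let cations through the plasma or organelle membrane. They differ in what opens them and in what they carry. TRPM8 opens on cooling and menthol and is best known from sensory neurons and prostate epithelium. TRPM4 and TRPM5 are opened by intracellular calcium and pass monovalent ions. TRPM6 and TRPM7 carry magnesium and other divalent ions and have a protein kinase fused to the channel, and TRPM6 is known for magnesium uptake in the distal convoluted tubule of the kidney. TRPM2 is opened by ADP-ribose, TRPM3 by pregnenolone sulfate and heat, and TRPM1 is known from melanocytes and retinal bipolar cells.

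The 4 libraries held 17270180 to 17742519 counts. The knockdown showed in TFE3 itself, at 70.1 and 66.9 CPM (counts scaled to library size with TMM factors) in shTFE3 against 131 and 128 CPM in shControl, and edgeR gave -0.92 on the log2 scale (SE 0.062) with an adjusted p of 5.6e-11. A count of 3, taken as the limit of detection for counting error only, corresponded to 0.169 to 0.174 CPM. The labelled cell type was checked against 15 markers of renal tubule and renal carcinoma, of which 9 passed the filter. PAX8, a renal lineage factor, had 8351 and 8250 counts in shTFE3 and 7235 and 7740 in shControl, while PAX2, CA9, LRP2, SLC12A1 and AQP2 had 0 counts in every library.

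TRPM8 (ENSG00000144481, chromosome 2, 233917398 to 234019522, plus strand, GRCh38) showed the largest difference of the 5 fitted members. It had 194 and 207 counts in shTFE3 and 782 and 773 counts in shControl. These correspond to 10.8 and 11.6 CPM in shTFE3 and 45.8 and 45.4 CPM in shControl. The arms did not overlap, and each pair of replicates lay close together beside the gap between the arms. With 2 libraries in each arm, non-overlap alone is frequent even without a difference, so it carries little weight for any member. Its share over all genes was not counted. The mean was 11.2 ± 0.593 CPM in shTFE3 and 45.6 ± 0.332 CPM in shControl (SD, n = 2 each), so that 24.6% of the control level was left, a log2 fold change of -2.02 (SE 0.091). In the comparison, 17 of 15950 tested genes had a log2 fold change at or below that of TRPM8, itself included. With any 1 library left out the value lay between -2.08 and -1.97. In the authors' deposited table the log2 fold change of TRPM8 was -2.02 with a standard error of 0.133, and it was -2.01 after their shrinkage. In bulk RNA, fewer cells with TRPM8 mRNA and less TRPM8 mRNA per cell cannot be told apart.

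The RefSeq promoter windows of TRPM8 are shown because TRPM8 had the largest difference, and the single window of TRPM7 because TRPM7 was the most abundant member. Each window runs from 250 bases before to 50 bases after an annotated transcript start on GRCh38.p14, printed 5′ to 3′ on the strand of the gene, and capitals mark matches, on either strand, to the E-box core CACGTG and the M-box core CATGTG, also when extended to TCACGTG and, for the M-box, TCATGTG. The first line is the most upstream of 6 TRPM8 windows, chr2:233917123-233917422, plus strand. The second is the most downstream TRPM8 window, chr2:233979899-233980198, plus strand. The third is TRPM7, chr15:50686748-50687047, minus strand.
TRPM8 upstream start: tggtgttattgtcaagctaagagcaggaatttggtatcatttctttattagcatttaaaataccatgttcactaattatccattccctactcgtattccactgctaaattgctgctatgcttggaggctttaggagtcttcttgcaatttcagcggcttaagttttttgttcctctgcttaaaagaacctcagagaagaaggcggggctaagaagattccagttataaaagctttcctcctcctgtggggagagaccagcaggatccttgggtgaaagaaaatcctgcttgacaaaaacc
TRPM8 internal start: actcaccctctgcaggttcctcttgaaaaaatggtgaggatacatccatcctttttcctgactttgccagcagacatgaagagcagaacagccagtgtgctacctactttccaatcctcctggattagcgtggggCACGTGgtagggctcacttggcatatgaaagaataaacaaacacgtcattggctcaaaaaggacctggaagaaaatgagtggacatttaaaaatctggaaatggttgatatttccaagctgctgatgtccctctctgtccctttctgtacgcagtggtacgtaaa
TRPM7: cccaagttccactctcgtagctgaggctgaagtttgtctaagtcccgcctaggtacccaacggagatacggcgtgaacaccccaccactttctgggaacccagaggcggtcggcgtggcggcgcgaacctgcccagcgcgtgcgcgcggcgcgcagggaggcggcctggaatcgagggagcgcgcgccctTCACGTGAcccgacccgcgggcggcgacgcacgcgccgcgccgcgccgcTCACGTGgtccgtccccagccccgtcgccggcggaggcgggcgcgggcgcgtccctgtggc

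MiT/TFE factors are known to bind both cores. The extended forms contain the cores, so their matches overlap. The upstream TRPM8 window held none of the 4 motifs and was 41.0% G and C, below the lower quartile of 47.0% over all 35116 windows. The counts do not say which TRPM8 start was used. The TRPM7 window was 73.3% G and C, above the upper quartile of 68.0%, and held CACGTG at 2 places, the first inside the palindrome TCACGTGA that begins 60 bases before the start and the second in a TCACGTG that begins 11 bases before it. CACGTG occurred in 7.26% of all windows and TCACGTG in 3.71%. Among 18 windows of 7 members CACGTG was in 3, those of TRPM7, an internal start of TRPM8 and a start of TRPM2. CATGTG was in 4 of the 18 windows (11.1% of all windows), 2 of them of TRPM1. The others were of a start of TRPM2 and of another internal start of TRPM8, whose window is not shown. TCATGTG was in 1 of the 18 (2.92% of all windows). These are matches of letters, not binding sites.

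TRPM7 (ENSG00000092439, chromosome 15, 50552473 to 50686815, minus strand), the ubiquitous channel-kinase, was the most abundant member in all 4 libraries. It had 1623 and 1575 counts in shTFE3 and 1824 and 1914 in shControl, which is 90.3 and 88.5 CPM in shTFE3 and 107 and 112 CPM in shControl. The arms did not overlap. The mean was 89.4 ± 1.27 CPM in shTFE3 and 109.6 ± 3.83 CPM in shControl (SD, n = 2 each), or 81.6% of control, a log2 fold change of -0.29 (SE 0.062). TRPM6 (ENSG00000119121, chromosome 9, 74722495 to 74888094, minus strand), its close relative, was near the detection limit. It had 9 and 5 counts in shTFE3 and 28 and 20 in shControl, which is 0.501 and 0.281 CPM in shTFE3 and 1.64 and 1.17 CPM in shControl. Here too the arms did not overlap, but each value rests on few reads, and TRPM6 passed the filter through its shControl libraries alone. The log2 fold change of TRPM6 was -1.83 (SE 0.41), and it ranged from -2.29 to -1.48 with 1 library left out. In the authors' deposited table TRPM6 had a log2 fold change of -1.85 with a standard error of 0.696, and -0.12 after their shrinkage.

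TRPM4 (ENSG00000130529, chromosome 19, 49157741 to 49211836, plus strand), the calcium-activated monovalent channel, had 497 and 419 counts in shTFE3 and 547 and 539 in shControl. Its levels were 27.7 and 23.6 CPM in shTFE3 and 32.1 and 31.6 CPM in shControl. The arms did not overlap, and the shTFE3 replicates lay about as far apart as the nearest libraries of the arms. The mean was 25.6 ± 2.90 CPM in shTFE3 and 31.9 ± 0.303 CPM in shControl (SD, n = 2 each), a log2 fold change of -0.31 (SE 0.089), which was -0.43 without shTFE3 replicate 1 and -0.21 without shTFE3 replicate 2. TRPM5 (ENSG00000070985, chromosome 11, 2404515 to 2423045, minus strand), the taste-cell relative of TRPM4, had 1 and 0 counts in shTFE3 and 0 and 0 in shControl and was not detectable at this depth.

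TRPM3 (ENSG00000083067, chromosome 9, 70529063 to 71446904, minus strand) had 28 and 47 counts in shTFE3 and 32 and 36 in shControl. Its levels were 1.56 and 2.64 CPM in shTFE3 and 1.88 and 2.11 CPM in shControl, so that the shTFE3 libraries lay on both sides of the control libraries. The log2 fold change was 0.072 (SE 0.27), and it was 0.41 without shTFE3 replicate 1 and -0.36 without shTFE3 replicate 2, so no direction can be given for TRPM3. TRPM1 (ENSG00000134160, chromosome 15, 31001061 to 31161273, minus strand) had 0 and 0 counts in shTFE3 and 1 and 2 in shControl. TRPM2 (ENSG00000142185, chromosome 21, 44350163 to 44443081, plus strand) had 1 and 2 in shTFE3 and 0 and 2 in shControl. No library passed the limit of 3 counts for either gene, and no fold change is given.

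TRPM3 and TRPM1 each hold a microRNA in an intron, miR-204 on chromosome 9 and miR-211 on chromosome 15, and their mature forms are shown because the hosts differ in level while the microRNAs are nearly the same. The RefSeq sequences of the 5p arms (GRCh38.p14, 5′ to 3′, seed at bases 2 to 8 in capitals) have 22 bases each, differ at 2 bases and share their seed.
hsa-miR-204-5p: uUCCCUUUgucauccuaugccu
hsa-miR-211-5p: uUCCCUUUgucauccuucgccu
Mature microRNAs lack a poly(A) tail and were not measured by these libraries, and the rows of both microRNA genes held 0 counts. Of the hosts, TRPM3 was low and TRPM1 was not detectable.

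**Figure D1:**
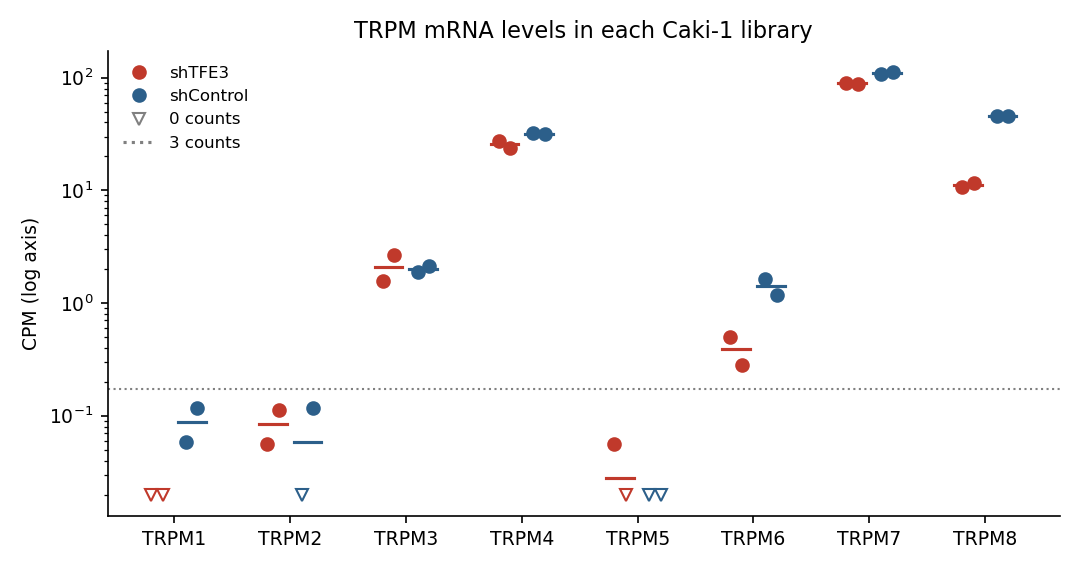
Level of each TRPM gene in CPM on a log axis, with a point per library (shTFE3 red, left; shControl blue, right), a bar at the mean of 2 libraries, open triangles for 0 counts and a dotted line at 3 counts. TRPM8 stood at 10.8 and 11.6 CPM in shTFE3 and at 45.8 and 45.4 CPM in shControl, and TRPM1, TRPM2 and TRPM5 lay below the line in every library.

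In the fit over all genes, 4 of the 5 fitted members (TRPM4, TRPM6, TRPM7 and TRPM8) were lower in shTFE3 with an edgeR adjusted p under 0.05, where 12.9% of 15950 tested genes were called lower, 10.3% higher and 23.3% in either direction. Both TRPM8 and TRPM6 were at least 2-fold lower, as were 1.18% of tested genes. TRPM6 passed the filter for low counts only through its shControl libraries, where it was higher, so nothing is read from its direction. Because TRPM8 chose the family from this same comparison, nothing is read from these counts. The median log2 fold change was -0.31 over the 5 fitted members and 0.0015 over all tested genes. By DESeq2 as run here TRPM7 and TRPM8 passed, TRPM4 did not and TRPM6 was given no adjusted p. The authors' deposited table of changed genes does list TRPM6, with an adjusted p just under 0.05. Without shTFE3 replicate 2 only TRPM8 passed among the 5, and without shTFE3 replicate 1 TRPM6 did not.

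**Figure D2:**
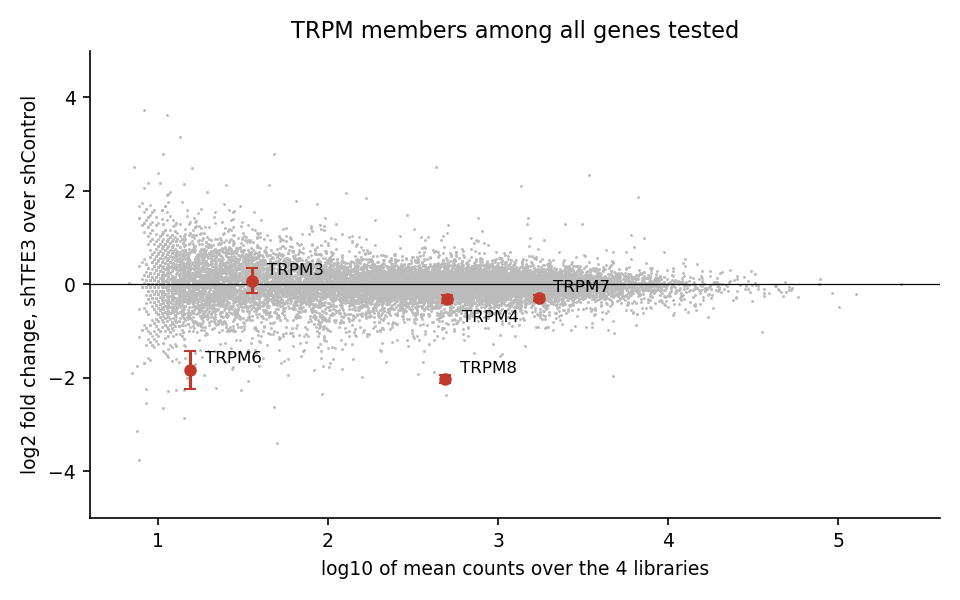
Log2 fold change of shTFE3 over shControl against the log10 of mean counts for 15950 tested genes (grey), with the 5 fitted TRPM members in red and bars of 1 SE. TRPM8 lay at -2.02, below nearly all genes of similar counts, TRPM6 at -1.83 with a wide bar, TRPM4 and TRPM7 at -0.31 and -0.29, and TRPM3 at 0.072.

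Levels of different members were compared as CPM per kilobase of annotated exon. In shTFE3 the order was TRPM7 (7.28 and 7.14 CPM per kb), TRPM4 (4.19 and 3.57), TRPM8 (1.37 and 1.47), TRPM3 (0.0783 and 0.133) and TRPM6 (0.0545 and 0.0306). In shControl it was TRPM7 (8.63 and 9.06 CPM per kb), TRPM8 (5.80 and 5.74), TRPM4 (4.86 and 4.79), TRPM6 (0.179 and 0.128) and TRPM3 (0.0942 and 0.106). TRPM8 thus stood below TRPM4 in both shTFE3 libraries and above it in both shControl libraries, and TRPM6 stood below TRPM3 in shTFE3 and above it in shControl. With these lengths no neighbours among the 5 overlapped within an arm, although the TRPM3 and TRPM6 levels rest on few reads. With the longest transcript as the length, TRPM7, TRPM8 and TRPM4 kept these places in every library. TRPM3 and TRPM6 did not: in shControl replicate 2 TRPM3 then stood above TRPM6, at 0.172 and 0.139 CPM per kb, while in shControl replicate 1 it stood below, at 0.153 and 0.195. The order of these 2 genes in shControl therefore depends on the length used.

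Summed over the family, the per-length level was 12.7 CPM per kb in shTFE3 and 19.7 in shControl, a difference of -7.04. TRPM8 made up 61.9% of this difference, TRPM7 23.2%, TRPM4 13.5% and TRPM6 1.57%. Because TRPM8 chose the family from this same comparison, nothing is read from the size of its part. These parts also depend on the exon lengths used. TRPM8 supplied 10.5% and 11.9% of the summed level in the shTFE3 libraries, against 29.7% and 28.9% in the shControl libraries. TRPM7 supplied 56.1% and 57.8% in shTFE3 and 44.1% and 45.6% in shControl. A larger share of TRPM7 in shTFE3 therefore went with a lower TRPM7 level.

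**Figure D3:**
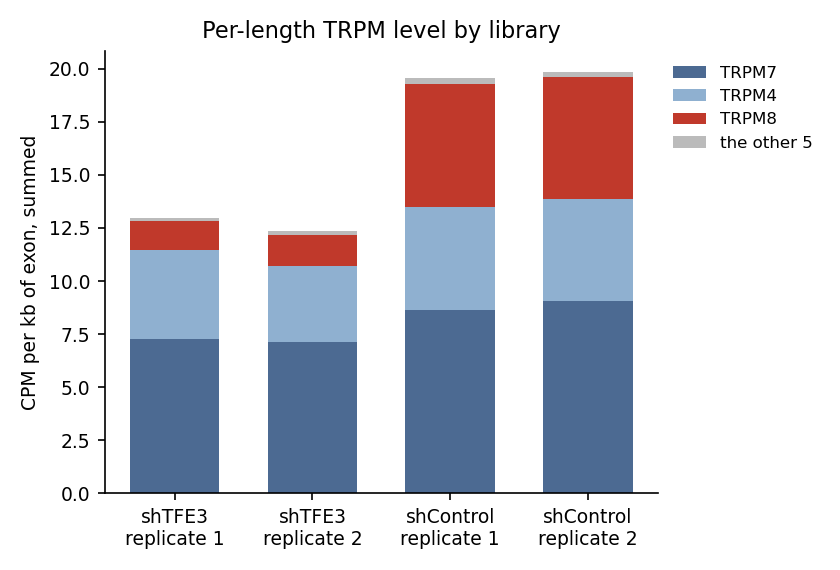
Summed per-length level of the TRPM family in each library, in CPM per kilobase of exon, with TRPM7, TRPM4 and TRPM8 as stacked parts and the other 5 members in grey. The shTFE3 bars are shorter than the shControl bars, and the TRPM8 part is 10.5% and 11.9% of the bar in shTFE3, against 29.7% and 28.9% in shControl.

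Of the 31-base words in annotated TRPM8 transcripts, 2.98% also occurred in transcripts of genes outside the family, on either strand, and 3 words occurred in another TRPM gene. The share was 10.5% of words for TRPM7, 4.33% for TRPM4, 3.08% for TRPM6 and 0.972% for TRPM3. Whether counting used the strand is not stated in the labels. An antisense gene overlaps exons of TRPM8 (ENSG00000237581) and of TRPM7 (ENSG00000259684), and both had 0 counts in every library. Of the genes beside TRPM8, HJURP, a centromere histone chaperone 62832 bases away, had 68.1 ± 13.2 CPM in shTFE3 and 66.5 ± 4.50 CPM in shControl (SD, n = 2 each; log2 fold change 0.034, SE 0.089, edgeR adjusted p 0.83), and SPP2 on the other side had 0 counts. Beside TRPM7, the protease gene SPPL2A differed by 0.0028 on the log2 scale (SE 0.07) and did not pass (edgeR adjusted p 0.985). Elsewhere MTMR10 next to TRPM1 fell by 0.61 on the log2 scale (SE 0.072, edgeR adjusted p 5.36e-07), and KLF13 on the other side of TRPM1 rose by 1.17 (SE 0.25, edgeR adjusted p 0.0011). CEMIP2 next to TRPM3 rose by 0.26 (edgeR adjusted p 0.001), SLC6A16 next to TRPM4 by 0.64 (edgeR adjusted p 0.0137) and TSSC4 next to TRPM5 by 0.34 (edgeR adjusted p 0.00666). KLF13, SLC6A16 and TSSC4 did not pass by DESeq2, and MTMR10 alone of these neighbours kept its call with any 1 library left out.

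The other transient receptor potential channels gave 1 rise and 6 falls among 12 tested genes of 19 measured, and their median was -0.29 on the log2 scale, where that of all tested genes was 0.0015. Over all tested genes 10.3% were called higher and 12.9% lower. The 7 calls in this list became 3 without either shTFE3 replicate, 6 without either shControl replicate and 1 with no filter on low counts. MCOLN3, a lysosomal cation channel, fell to 5.42 ± 0.120 CPM in shTFE3, against 11.0 ± 0.923 CPM in shControl (SD, n = 2 each; log2 fold change -1.02, SE 0.139, edgeR adjusted p 4.51e-06). Its relative MCOLN1, which releases calcium from lysosomes, fell by 0.41 (SE 0.093, edgeR adjusted p 0.00204). MCOLN2 had a log2 fold change of -0.34 and did not pass (edgeR adjusted p 0.0973). Among the receptor-operated TRPC channels TRPC4 fell by 0.76 (edgeR adjusted p 0.000592). TRPC1 had a log2 fold change of 0.017 and did not pass.

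The heat and capsaicin receptor TRPV1 was the sole rise, with 45 and 34 counts in shTFE3 and 16 and 16 in shControl, which edgeR put at 1.23 on the log2 scale (SE 0.294, adjusted p 0.003). TRPV2 fell by 0.47 (edgeR adjusted p 0.000428) and the ciliary polycystin PKD2 by 0.24 (edgeR adjusted p 0.00961). The irritant receptor TRPA1, which like TRPM8 serves in sensory neurons, had 41 and 35 counts in shTFE3 and 29 and 35 in shControl and did not pass, nor did TRPV4 (log2 fold change 0.18). TRPV5 and TRPV6, the epithelial calcium channels, had 0 counts. TRPV1 did not pass by DESeq2, and with 1 library left out MCOLN3 alone of the called channels named here kept its call every time. TRPC7 had 0 and 0 counts in shTFE3 and 4 and 1 in shControl, and TRPC5 had 0 and 0 in shTFE3 and 1 and 1 in shControl, too few to be fitted.

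**Figure D4:**
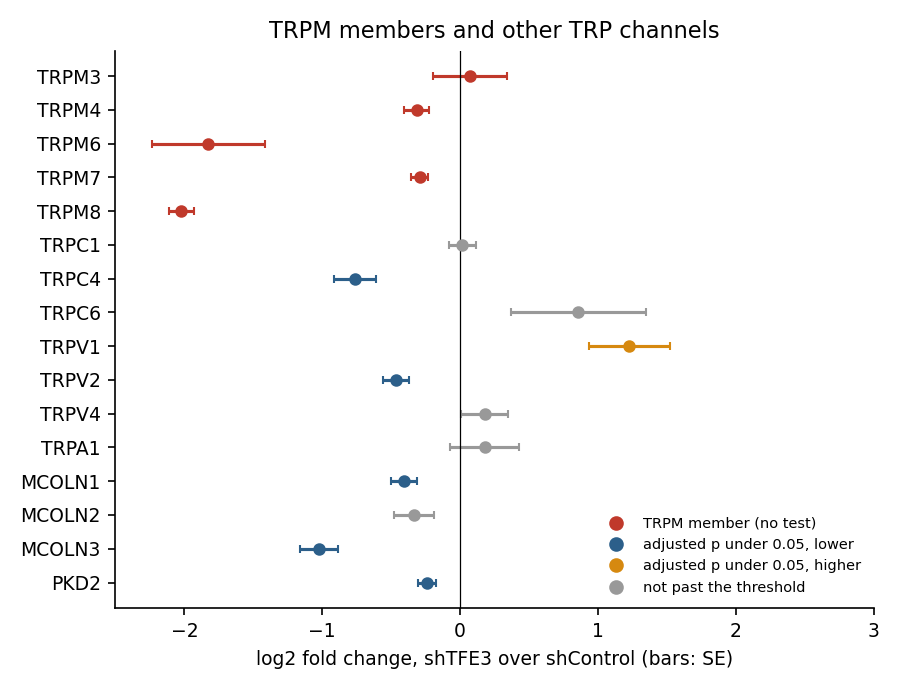
Log2 fold change of shTFE3 over shControl with bars of 1 SE for the 5 fitted TRPM members (red, not tested) and tested genes among other TRP channels (blue lower, orange higher, grey not past the threshold). TRPM8 and TRPM6 lie furthest to the left at -2.02 and -1.83, MCOLN3 at -1.02, and TRPV1 is the sole call to the right at 1.23.

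The list for magnesium and zinc handling, a function of TRPM6 and TRPM7, leaves out these 2 genes themselves. It gave 3 rises and 5 falls among 23 tested genes, with a median of -0.060 on the log2 scale. Over all tested genes 10.3% were called higher and 12.9% lower. The tight-junction gene CLDN16, known for paracellular magnesium uptake in the thick ascending limb, fell to 9.48 ± 1.24 CPM in shTFE3, against 17.9 ± 0.721 CPM in shControl (SD, n = 2 each; log2 fold change -0.92, edgeR adjusted p 1.64e-06). MRS2, a magnesium channel of mitochondria, fell by 0.65 (edgeR adjusted p 3.74e-06) and the transporter SLC41A2 by 0.65 (edgeR adjusted p 8.03e-06). The phosphatase PTP4A2 rose by 0.35 (edgeR adjusted p 2.73e-05). All 4 kept their calls with any 1 library left out and by DESeq2, while the 8 calls of the list became 5 without shTFE3 replicate 1, 4 without shTFE3 replicate 2 and 1 with no filter.

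Calcium stores and pumps gave 2 rises and 4 falls among 22 tested genes, with a median of -0.056. Since 23.3% of all tested genes were called in either direction, nothing is read from this count. The inositol trisphosphate receptor ITPR2, which releases calcium from the endoplasmic reticulum, fell to 57.9 ± 3.55 CPM in shTFE3, against 96.7 ± 0.544 CPM in shControl (SD, n = 2 each; log2 fold change -0.74, edgeR adjusted p 6.98e-09). ITPR3 fell by 0.43 (edgeR adjusted p 7.69e-06) and the sodium-calcium exchanger SLC8A1 by 0.74 (edgeR adjusted p 0.000339). SLC8A1 did not pass without either shTFE3 replicate, and the 6 calls of the list became 2 without shTFE3 replicate 1, 3 without shTFE3 replicate 2 and 1 with no filter.

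TRPM8 needs the membrane lipid PIP2 to open, and phospholipase C removes that lipid. Of 18 tested genes for Gq proteins, phospholipase C and PIP2 supply, 3 fell and 1 rose, with a median of -0.083. The share called in either direction over all tested genes was 23.3%, so nothing is read from this count. The phospholipase PLCB4 fell to 176 ± 6.23 CPM in shTFE3, against 296 ± 2.35 CPM in shControl (SD, n = 2 each; log2 fold change -0.75, edgeR adjusted p 3.02e-10). PI4K2A, a kinase of PIP2 synthesis, fell by 0.42 (edgeR adjusted p 0.00056) and PLCE1 by 0.47 (edgeR adjusted p 0.00838), while PI4KB rose by 0.19 (edgeR adjusted p 0.0261). PLCB4 alone of these 4 kept its call with any 1 library left out, and without either shTFE3 replicate or the filter it was the list's 1 call.

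Of 16 tested partners and regulators of TRPM channels 4 fell and 0 rose, with a median of -0.069. Among all tested genes 23.3% were called in either direction and 12.9% lower, so nothing is read from this count. The TRPM8-associated factor TCAF1 fell by 0.18 (edgeR adjusted p 0.0348), a call lost by DESeq2 and with any 1 library left out, and with the replicate number as a block (edgeR adjusted p 0.0586) or library totals alone. The ADP-ribose hydrolase ADPRS fell by 0.44 (edgeR adjusted p 0.0004), the chaperone HSPA8 by 0.27 (edgeR adjusted p 0.00197) and the calmodulin gene CALM3 by 0.23 (edgeR adjusted p 0.00582). ADPRS lost its call without shTFE3 replicate 2, HSPA8 by DESeq2 and without shTFE3 replicate 1 or shControl replicate 2, and CALM3 without replicate 1 of either arm. PIRT, a TRPM8 partner of sensory neurons, had 0 counts in all libraries.

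Markers of the cell types best known for these channels were low. Of 8 prostate markers 4 passed the filter, 2 higher and 1 lower in shTFE3, and KLK2, KLK3, KLK4 and ACP3 had 0 counts in every library. STEAP2 rose by 0.35 on the log2 scale (edgeR adjusted p 0.0071) and HOXB13 fell by 0.37 (edgeR adjusted p 0.0386), and neither passed by DESeq2. The summed prostate markers lay at 81.8 and 78.9 CPM in shTFE3 and at 69.1 and 74.0 CPM in shControl. STEAP2 supplied 43.0 CPM of this sum in shTFE3 and 33.8 CPM in shControl, and over the 4 fitted markers the median was 0.066 on the log2 scale. Of 9 sensory neuron markers 3 passed and 1, SCN9A, was lower, with 9 and 6 counts in shTFE3 and 17 and 19 in shControl, a call lost with any 1 library left out, and SCN10A, CALCA and TAC1 had 0 counts. SCN9A passed the filter through its shControl libraries alone, and DESeq2 gave it no adjusted p. The summed sensory neuron markers lay at 10.7 and 11.9 CPM in shTFE3 and at 12.4 and 12.4 CPM in shControl. Of 8 melanocyte markers 3 passed and 0 were called, TYR had 0 counts, and the sum was 4.56 and 4.38 CPM in shTFE3 against 3.75 and 3.87 CPM in shControl. Of 12 leukocyte, endothelial and fibroblast markers 3 passed and 0 were called, with sums of 23.7 and 23.0 CPM in shTFE3 and 22.9 and 23.2 CPM in shControl, and CD3E and CDH5 had 0 counts. Among the renal markers LHX1, a nephron progenitor factor, fell by 0.80 (edgeR adjusted p 9.25e-07) and the keratin KRT18 by 0.28 (edgeR adjusted p 0.00191), and none rose. KRT18 lost its call without either shTFE3 replicate. Over all tested genes 10.3% were called higher and 12.9% lower. Whether these marker differences bear on the TRPM levels was not tested.

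The genes whose profile over the 4 libraries was nearest to that of TRPM8 were CLDN2, CLSTN2, LINC02532, APBA1 and ENPP5, out of 10912 genes whose mean reached 100 counts. Likeness was the root mean square distance between log2 CPM values, each centred on the mean of its gene, and came to 0.060 for CLDN2, 0.080 for CLSTN2, 0.109 for LINC02532, 0.127 for APBA1 and 0.176 for ENPP5. With 2 arms of 2 libraries this measure mostly ranks genes by how near their fold change is to that of TRPM8, and the log2 fold changes of the 5 genes lay between -1.95 and -1.77.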

How the data were processed

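RNA of 2 shTFE3 and 2 shControl libraries of Caki-1 cells was counted per gene. The deposited read counts are raw, and the submitters' processing notes name hg38 and the tools featureCounts, STAR, DESeq2 and Trim Galore. Which annotation was counted, and how reads with several matches were treated, is not given in the sources used here. The authors' deposited table of changed genes lists 546 genes, 2 of them TRPM, each with an absolute log2 fold change of at least 0.585, and holds a signal averaged over libraries, log2 fold changes and their errors, a score per test, and p-values, used only as the authors' own.

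Members and lists were chosen with earlier results of these data known. Counts were fitted with edgeR 4.0.16 in R 4.3.3 (TMM factors, filterByExpr, quasi-likelihood test, group as the only term), and p-values were adjusted by Benjamini-Hochberg over 15950 tested genes at 0.05. Alternatives were other scaling factors, no filter or a stricter one, DESeq2, limma-voom, the replicate number as a block and leaving out each library. The procedure was tested on simulated data. The SE of a log2 fold change is its size divided by the root of the test statistic. Symbols were matched for 61369 identifiers from a gene name table and 105 from GENCODE release 29, which also gave coordinates and exon lengths. Exon lengths were within 10% of the authors' for 85.3% of their listed genes. Named are all members, TFE3, up to 4 called genes with the smallest p in each list, called markers, other TRP channels averaging 10 counts or more, and genes beside or inside TRPM genes. Markers and channels at 0 counts, PAX8 and PIRT were named after their values were seen. Some genes that this rule selects are not reported here. Total counts per library limit precision as given with the detection limit.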

Additional observations from a re-analysis of the deposited data

How the results depend on the processing

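With any 1 library left out, TRPM8 ranged from -2.08 to -1.97 on the log2 scale, TRPM7 from -0.33 to -0.26, TRPM4 from -0.43 to -0.21, TRPM6 from -2.29 to -1.48 and TRPM3 from -0.36 to 0.41. Over the same fits 1 to 4 members passed the threshold, 1 member with no filter on low counts and 2 by DESeq2. Genes called over the whole table numbered 3709, with 1043 to 2514 when a library was left out, 384 with no filter and 1959 by DESeq2. Higher calls were 367 to 1008, 104 and 752 in those settings, and lower calls 676 to 1507, 280 and 1207. With a library left out, called genes numbered 3 to 6 among other TRP channels, 4 to 8 in magnesium and zinc handling, 2 to 5 in calcium stores and pumps, 1 to 3 in PIP2 supply and 1 to 2 among TRPM partners. With no filter these lists had 1, 1, 1, 1 and 0 called genes, and by DESeq2 PIP2 supply and TRPM partners had 2 each. Of 40 called genes named outside the family, 30 were no longer called with no filter, 12 by DESeq2, and 18 and 19 without shTFE3 replicates 1 and 2, and 0 changed sign in any setting run. SCN9A, a called gene, was given no adjusted p by DESeq2 and is not among those 12. Why these settings differ was not tested. The replicate number as a block left 3558 calls, and TCAF1 was the sole named gene to lose its call. The deviations of same-numbered libraries correlated at -0.096 across genes, so the number was not taken to pair the samples. The few counts of TRPM1, TRPM2, TRPM5 and TRPM6 limit what this depth can show.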
